A study of Bos taurus with 40 samples.

Results

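The endometrium of the uterine horn opposite the corpus luteum was compared between day 5 and day 7, with 10 of the 40 RNA-seq libraries of the series. The members were taken by the horn and the day in their labels, 5 contralateral libraries on day 5 and 5 on day 7. The series holds endometrium of both horns of heifers whose cycles had been synchronized, killed on day 5, 7, 13 or 16, with 5 animals a day. The corpus luteum is the progesterone-secreting gland that an ovary builds after ovulation; the horn next to it is called ipsilateral and the opposite one contralateral. The contralateral day 5 group (tags 3-175, 8-1350, 1-315, 4-184 and 7-300) and the contralateral day 7 group (tags 6-338, 2-1337, 2-371, 4-064 and 5-117) share no tag, so the 2 days are 2 sets of animals and not a time course within animals. The labels name no treatment and no altered gene for either group, and no source used here gives breed or age. Days are called pregnancy days in the labels but are counted from estrus in the design text, and no source used here says whether the uteri held embryos. RNA came from homogenates of endometrial tissue, so every value is an average over all cell types of the sample.

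After ovulation the corpus luteum releases rising amounts of progesterone, which acts on uterine epithelium and stroma through its nuclear receptor, PGR. During this early luteal phase the bovine embryo passes from the oviduct into the uterus, where it lives for a time on fluid that the uterine glands and surface epithelium secrete. Lipids, sugars, amino acids, ions, growth factors and proteases reach this fluid from the endometrium, and the stroma below rebuilds its collagen matrix after estrus. Prolonged progesterone lowers PGR in the epithelium, and the receptor for oxytocin, OXTR, falls before it returns at the end of the cycle to drive prostaglandin F release.

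Reads in named genes came to between 31.4 and 38.6 M per library on day 5 (mean 35.4 ± 2.60 M, SD, n = 5) and between 30.8 and 35.5 M on day 7 (33.3 ± 2.14 M, SD, n = 5). The mitochondrial row took 0.119 ± 0.0258% of all reads on day 5 and 0.241 ± 0.0804% on day 7 (exact two-sided permutation p = 0.0397, adjusted p = 0.0992 over 5 measures). The 100 most abundant genes took 15.2 ± 1.03% on day 5 and 13.6 ± 0.751% on day 7 (exact permutation p = 0.0238, adjusted p = 0.0992), and total count, microRNA genes and tRNA genes did not pass either (adjusted p of 0.132 or more, where 5 against 5 allows no p below 0.00794). Levels are in CPM, the count per 1e+06 reads in named genes, which can be set between libraries for 1 gene, but not between genes, whose lengths differ. Markers of epithelium (summed level 1762 to 2491 CPM on day 5) and of stromal fibroblasts (30455 to 49840.0 CPM) were present in every library. Markers of luteal and ovarian tissue summed to at most 8.69 CPM in any library, markers of fat cells to at most 22.2 CPM and markers of the conceptus to at most 1.90 CPM. Of the conceptus markers, 8 had no read in the 10 libraries, and IFNT2, a gene of the multicopy interferon tau family, lay between 0.113 and 1.26 CPM with overlapping days.

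The first principal component of the 2000 most variable genes took 37.3% of the variance and placed all 5 day 5 libraries (-53.0 to -17.9) apart from all 5 day 7 libraries (7.31 to 43.6). The second took 13.6% and spread the libraries within each day. Day 5 library 1-315 lay farthest out on the day 5 side at -53.0, and day 7 library 6-338 lay nearest to day 5 at 7.31, while the other day 7 libraries started at 26.6. Among the genes that passed the test below, library 6-338 was the day 7 library nearest to day 5 for 1403 genes (47.1%), and library 4-064 for 174 (5.84%).

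**Figure D1:**
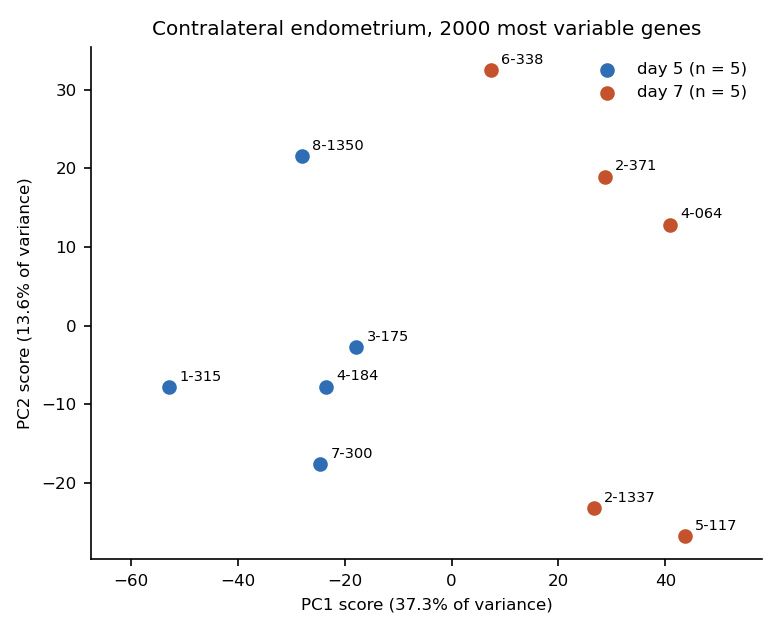
The 10 contralateral libraries on the first and second principal component (horizontal and vertical axis, in units of component score) of the 2000 most variable genes. The day 5 libraries lie between -53.0 and -17.9 and the day 7 libraries between 7.31 and 43.6 on the first component, with library 6-338 nearest to the day 5 side and library 1-315 farthest from day 7.

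Between day 5 and day 7, 2981 of 18629 genes tested (16.0%) passed edgeR's quasi-likelihood test at a Benjamini-Hochberg adjusted p below 0.05, 1512 higher on day 7 (8.12%) and 1469 lower (7.89%). These percentages are the background against which the counts in the gene lists below can be read. A share of a list near them is no result about that list. The median log2 fold change of all genes tested was -0.01, and the median size of the change among the genes that passed was 0.67. At least 2-fold changes made up 849 of them, with 506 higher and 343 lower. The 5 libraries of one day did not overlap those of the other in CPM for 2415 of the tested genes (13.0%), 1165 higher and 1250 lower, and 2030 genes both passed and did not overlap. The count fell to 1977 without day 5 library 1-315, to 1878 without day 7 library 2-371 and to 1698 without day 7 library 4-064, and was 3389 without day 7 library 6-338. With log2 total count as covariate it was 1751, with the joint microRNA and tRNA share (log2) as covariate 1397, and 50.7% of the main calls were higher.

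The genes with the steepest falls included a chemokine, epithelial junction and channel proteins, a membrane mucin, a hormone receptor and a growth inhibitor. CXCL5, a chemokine that attracts neutrophils, stood at 5.35, 7.61, 9.39, 12.2 and 12.5 CPM in the day 5 libraries and at 0.151, 0.253, 0.260, 0.339 and 0.507 CPM in the day 7 libraries. CXCL5 was low in all 5 day 7 libraries and the days did not overlap (log2 fold change -4.91 ± 0.36 SE, adjusted p = 0.000453). In such bulk samples fewer cells of a type and less RNA per cell cannot be told apart, which holds for every gene described here. CLDN6, a claudin of tight junctions, fell from 3.34, 3.51, 3.94, 4.11 and 5.80 CPM to 0.0632, 0.0650, 0.113, 0.141 and 0.301 CPM (-4.86 ± 0.38, adjusted p = 0.000505). MSTN, or myostatin, a member of the TGF-beta family known for holding back muscle growth, stood at 11.4, 12.4, 14.6, 17.4 and 18.7 CPM on day 5 and at 0.676, 0.715, 0.762, 0.885 and 2.44 CPM on day 7. Library 6-338 was the highest of the day 7 libraries for MSTN and still lay below every day 5 library (-3.76 ± 0.36, 13.5-fold lower, adjusted p = 0.000792).

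SHISA2, which restrains the maturation of FGF and WNT receptors, showed the same placement of library 6-338, with 21.8, 27.5, 32.9, 35.6 and 49.1 CPM on day 5 and 1.04, 1.10, 1.13, 1.56 and 7.59 CPM on day 7 (-3.75 ± 0.57, adjusted p = 0.00336, and -4.74 without 6-338). KCNE3, a regulatory subunit of potassium channels, fell from a mean of 31.2 ± 16.5 to 3.96 ± 2.45 CPM (SD, n = 5; -2.97 ± 0.46, adjusted p = 0.00382). The glycosyltransferase gene MGAT5B (-3.46), the tubulin gene TUBB4A (-2.89), the kinesin gene KIF12 (-2.88) and the adhesion gene TNS4 (-3.48) fell without overlap as well, with TNS4 at -4.34 without library 6-338. DMBT1, a scavenger receptor glycoprotein of mucosal secretions, had the largest fitted fall among the named genes, and that value leaned on 1 library. Its day 5 levels were 7.21, 7.48, 19.1, 27.9 and 249.9 CPM, with library 4-184 far above the other 4, and its day 7 levels were 0.0564, 0.480, 1.01, 1.23 and 1.84 CPM (-6.09 ± 1.22, adjusted p = 0.00926). Library 4-184 was also the highest for AQP5, a water channel of secretory epithelia, at 19.7 CPM where the other 4 day 5 libraries reached at most 3.29 CPM (-4.08 ± 0.94, adjusted p = 0.0157), and for NTS, which encodes neurotensin, at 12.2 CPM against at most 3.28 CPM (-2.97 ± 0.65, adjusted p = 0.0126). The calls of DMBT1, AQP5 and NTS were lost with the microRNA and tRNA share as covariate (adjusted p of 0.183, 0.149 and 0.132), and those of DMBT1 and AQP5 also in limma-voom. All 3 passed with any 1 library left out, and without library 4-184 their log2 fold changes were -4.07, -2.58 and -2.17.

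Genes with the steepest rises included myosin, oxysterol and small surface protein genes. MYH7B, a slow myosin heavy chain gene, rose from 2.81, 3.52, 4.46, 8.36 and 11.3 CPM to 66.3, 87.5, 121, 140.0 and 158 CPM (4.24 ± 0.43, adjusted p = 0.00104). For MYH7B library 1-315 was the lowest on day 5 and library 6-338 the lowest on day 7. CYP39A1, an enzyme that hydroxylates oxysterols, rose from 28.8, 34, 38.5, 44.3 and 51.8 CPM to 166, 303, 385, 420.3 and 465 CPM (3.17 ± 0.28, 8.97-fold, adjusted p = 0.000554).

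SSLP1 (4.39) and LY6G6E (3.99), which encode small proteins of the Ly-6 family, rose together with FXYD4, a regulator of the sodium pump (2.96), the vanin gene VNN2 (2.87), the carboxylesterase gene CES4A (2.98) and TMEM171 (3.11). NUPR1, a stress-induced nuclear protein, went from 21.4, 49.3, 51.5, 52 and 52.9 CPM on day 5, with library 1-315 lowest, to 99.9, 243, 257, 399 and 495 CPM on day 7 (2.75 ± 0.42, adjusted p = 0.00336). SOHLH2, a transcription factor gene known from germ cells, was low on both days, at 0.0563, 0.383, 0.389, 0.424 and 0.673 CPM and 0.753, 1.93, 1.98, 4.17 and 9.62 CPM, and its day 7 libraries spread widely (3.28 ± 0.73, adjusted p = 0.0137, and 2.52 without 5-117). CLEC10A, a lectin gene of macrophages and dendritic cells, rose from 0.396, 0.446, 0.619, 0.621 and 1.06 CPM to 1.47, 4.81, 7.35, 7.39 and 7.86 CPM, with library 2-1337 the lowest on day 7 (3.21 ± 0.45, adjusted p = 0.00256). In the list of macrophage and dendritic cell markers, which does not hold CLEC10A, 0 of 16 rose and 1 fell (6.25%, near the background of 7.89%). The fall was MRC1, the mannose receptor (-0.85 ± 0.20, adjusted p = 0.0163). None of the 16 markers was higher in DESeq2 (0) or at an unadjusted p below 0.05 in edgeR (0).

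**Figure D2:**
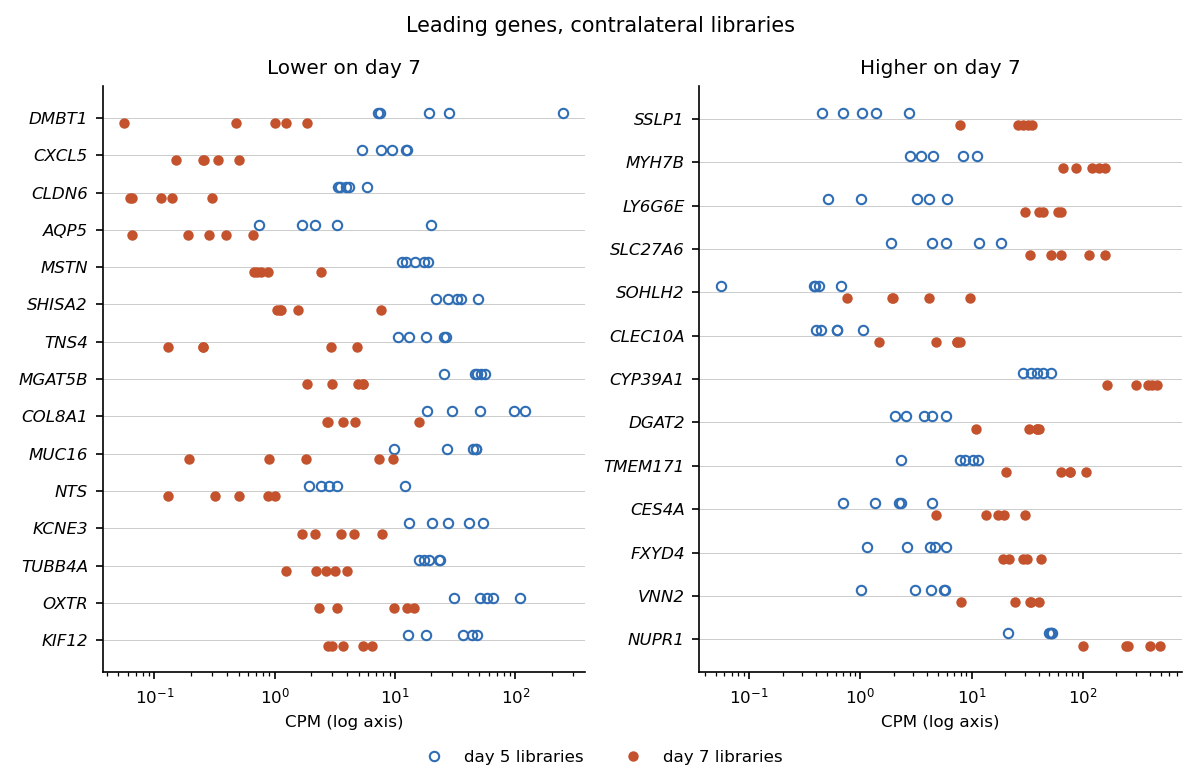
CPM (log axis) of 15 genes with the lowest and 13 with the highest log2 fold changes under the rule for named genes, 1 point per contralateral library. Open circles are the 5 day 5 libraries and filled circles the 5 day 7 libraries, which do not overlap in any of the 28 genes because the rule asked for that. Genes run from the largest fold change at the top, DMBT1 among the falls and SSLP1 among the rises.

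Steroid receptor genes moved in both directions. Among 22 genes of the list of steroid receptors and cofactors, 4 rose and 4 fell, with a median log2 fold change of -0.15. PGR stood at 10.7, 11.5, 12.4, 16.1 and 24.2 CPM on day 5 and at 3.83, 6.86, 7.24, 8.19 and 9.73 CPM on day 7. The days did not overlap, but the lowest day 5 library and the highest day 7 library lay close together (-1.04 ± 0.27, 2.06-fold lower, adjusted p = 0.0247). The PGR call was lost without day 5 library 1-315 or day 7 library 2-371 (adjusted p up to 0.0580) and with either covariate. ESR1, the main estrogen receptor of the uterus, was 14.4, 19.7, 24.1, 26.9 and 31 CPM on day 5 and 13.5, 15.9, 18.4, 18.6 and 20.5 CPM on day 7, with overlapping days and no call (-0.40 ± 0.19, adjusted p = 0.176). ESR2, the second estrogen receptor, rose from 42 ± 9.91 to 75.5 ± 8.22 CPM (SD, n = 5; 0.86 ± 0.16, adjusted p = 0.00668). PAQR8, a membrane progesterone receptor, rose 2.47-fold (1.30 ± 0.18, adjusted p = 0.00231), and NR3C1, the glucocorticoid receptor, fell (-0.50 ± 0.12, adjusted p = 0.0191). Leaving out 1 library at a time left 2 to 4 of the list higher and 1 to 6 lower, with 2 higher and 1 lower without day 5 library 1-315 or without day 7 library 2-371, 2 higher without 4-184 or 4-064, and 2 lower without 8-1350, 4-064 or 5-117.

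OXTR, through which oxytocin evokes prostaglandin F release, fell from 30.9, 51, 57.9, 64.8 and 109.9 CPM to 2.34, 3.31, 9.82, 12.6 and 14.3 CPM. The highest day 7 library lay below the lowest day 5 library (-2.88 ± 0.50, 7.36-fold lower, adjusted p = 0.00538). In the list of prostaglandin synthesis, breakdown and receptors, which counts OXTR, 3 of 21 rose (14.3%) and 2 fell (9.52%, near the background). AKR1B1, an aldo-keto reductase that makes prostaglandin F in bovine endometrium, was 242, 282, 373, 387 and 409.7 CPM on day 5 and 389.7, 1016, 1017, 1216 and 1321 CPM on day 7. Day 7 library 6-338, at 389.7 CPM, lay within the day 5 range, and the other 4 day 7 libraries lay above 1000 CPM (1.58 ± 0.30, adjusted p = 0.00735). The other calls of the list, PTGIS and PTGER4 among the rises and PTGER1 among the falls, were each lost in 6 to 9 of the 10 fits with 1 library left out.

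Genes of the stromal matrix held the most falls of the 45 lists. Of 45 genes for matrix glycoproteins, elastic fibres and cross-linking enzymes, 23 fell, 44 had a negative fold change, and the median was -0.76 where that of all genes was -0.01. LTBP1, which stores latent TGF-beta in the matrix, was 152, 217, 225, 367 and 439 CPM on day 5 and 38.4, 40.2, 51.1, 82.9 and 104 CPM on day 7 (-2.12 ± 0.34, adjusted p = 0.00422). CTGF, a matricellular protein, was 183, 237, 245, 245 and 489 CPM on day 5, with library 1-315 highest, and 64.3, 79.1, 85.5, 96.1 and 117 CPM on day 7 (-1.63 ± 0.26, adjusted p = 0.00391). P4HA2, a prolyl hydroxylase that stabilizes collagen, fell from 203 ± 32.9 to 87.5 ± 19.3 CPM (-1.20 ± 0.14, adjusted p = 0.00150). None of these 3 genes overlapped between the days. Leaving out 1 library at a time left 13 to 26 members lower, with 15 without day 7 library 2-371 and 13 without day 7 library 4-064, and the covariate fits left 14 (total count) and 9 (microRNA and tRNA share).

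Of the collagen chains 11 of 31 were lower and 1 higher, with a median of -0.42. COL12A1, a fibril-associated chain, was 149, 235, 309, 427 and 649 CPM on day 5 and 41, 78.1, 89.5, 93.5 and 130.3 CPM on day 7 (-2.03 ± 0.39, adjusted p = 0.00784). COL8A1, a chain of network-forming collagen, was 18.4, 29.7, 50.5, 96.6 and 119.7 CPM on day 5 and 2.70, 2.76, 3.67, 4.65 and 15.8 CPM on day 7, with library 6-338 highest on day 7 and just below the lowest day 5 library (-3.41 ± 0.63, adjusted p = 0.00703, and -4.15 without 6-338). COL5A2, which takes part in fibril assembly, fell 2.19-fold (-1.13 ± 0.23, adjusted p = 0.00913). COL1A1, the main fibrillar chain, fell from 5872 ± 1377 to 3072 ± 945 CPM with overlapping days, and its call (adjusted p = 0.0221) was lost without day 5 library 7-300 or day 7 library 2-371 or 4-064 (adjusted p up to 0.0561). The exception was the basement membrane chain COL4A3, which rose (1.62 ± 0.41, adjusted p = 0.0238) and lost its call without day 7 library 2-371 (adjusted p = 0.0577). The count of lower collagen chains was 5 without 2-371, 7-300 or 4-064 and 6 without 4-184 or 5-117.

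Markers of stromal fibroblasts and of smooth muscle also held falls. Among 15 stromal fibroblast markers, which share COL1A1 and other collagens with the list above, 5 fell and 13 had a negative fold change (median -0.46), and their summed level was 30455, 35503, 36846, 42116 and 49840.0 CPM on day 5 and 17444, 19895, 20763, 27997 and 33423 CPM on day 7. Most of that sum came from COL3A1, COL1A2 and COL1A1 (day 5 means of 18567, 8525 and 5872 CPM), so it largely repeats the collagen result. DPT, which encodes the matrix protein dermatopontin, fell (-1.80 ± 0.35, adjusted p = 0.00841), as did the transcription factor gene TCF21 (-1.07 ± 0.24, adjusted p = 0.0135). The 10 members that did not pass ran from OGN (-1.01) and VIM (-0.61) to DCN (-0.10), PDPN (0.15) and PDGFRA (0.19). Smooth muscle markers, which the myometrium and vessel walls share, fell in 5 of 16 with a median of -0.57, and their summed level was 1429, 1665, 2121, 2154 and 2465 CPM on day 5 and 1008, 1021, 1069, 1196 and 1636 CPM on day 7. The actin gene ACTA2 (-1.38 ± 0.29, adjusted p = 0.0115) and the calponin genes CNN1 (-1.31 ± 0.29, adjusted p = 0.0133) and CNN2 (-0.80 ± 0.15, adjusted p = 0.00688) were among them. The part of a change in fibroblast or muscle content in the matrix result was not tested. With the microRNA and tRNA share as covariate 1 marker of each of these 2 lists passed, and the calls of ACTA2 and CNN1 were lost (adjusted p = 0.0611 for CNN1). The fibroblast count was 3 with total count as covariate, and the smooth muscle count 3 with all 40 libraries in the fit. The fibroblast count was also 2 without 2-371, 7-300 or 4-064 and 3 without 3-175, 4-184 or 5-117.

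Of the matrix proteases and their inhibitors 6 of 25 were lower (24%) and 1 higher (4%, below the background of 8.12%), with a median of -0.19. ADAMTS4, which cleaves proteoglycans, fell from 32.4 ± 7.16 to 14.9 ± 2.81 CPM (-1.10 ± 0.18, adjusted p = 0.00413), and ADAMTS2, which trims procollagen, fell with overlapping days (-0.86 ± 0.20, adjusted p = 0.0161). The lower count was 2 without day 7 library 2-371 or day 5 library 7-300 and 3 without 1-315, 4-184 or 4-064, and the higher count was 0 without 3-175, 8-1350, 1-315, 7-300, 4-064 or 5-117 and 2 without 6-338.

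**Figure D3:**
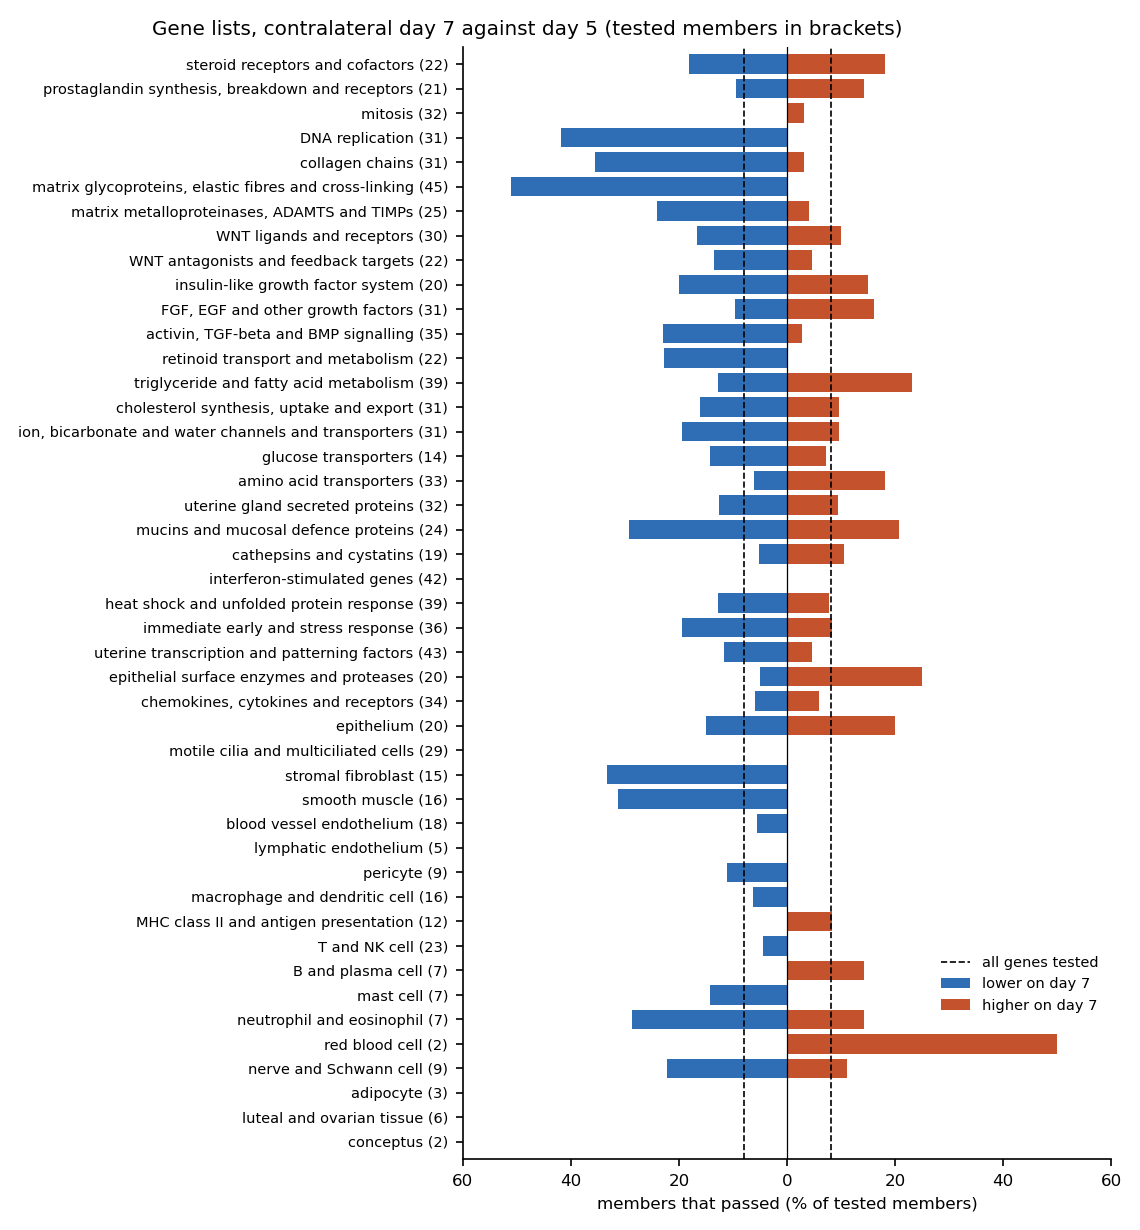
Share of the tested members of each gene list that passed the test as lower (left, negative side) or higher (right) on day 7, in percent of the tested members of the list, with the number of tested members beside each list name. Dashed lines mark the background of 7.89% lower and 8.12% higher over all genes tested, and the matrix glycoproteins and the DNA replication genes show the longest bars to the left among lists of 10 or more members.

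Cell division genes had mostly negative fold changes, with calls among the replication genes. In the list of DNA replication genes 13 of 31 fell, with a median of -0.46. MCM6, a subunit of the helicase that opens DNA at replication origins, was 54.3, 57.3, 57.7, 59 and 72.2 CPM on day 5 and 21.5, 29.1, 31.7, 31.9 and 39.2 CPM on day 7, with no overlap (-0.95 ± 0.13, adjusted p = 0.00246). The helicase subunits MCM4 (-0.84 ± 0.13, adjusted p = 0.00363) and MCM5 (-0.64 ± 0.11, adjusted p = 0.00469) fell too. Leaving out 1 library at a time left 9 to 18 of the list lower. Of 32 mitosis genes 30 had a negative fold change and the median was -0.58, but 0 passed as lower in edgeR, where 3 were lower at an unadjusted p below 0.05 and DESeq2 called 0 lower. The gene of that list that passed was CCNB1, cyclin B1, which went the other way, from 204, 220.0, 262, 292 and 304 CPM on day 5 to 316, 453, 539, 549 and 556 CPM on day 7 (0.94 ± 0.17, adjusted p = 0.00709).

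Among early response genes 7 of 36 were lower (19.4%) and 3 higher (8.33%, near the background of 8.12%), with a median of -0.33. MYC, a growth-promoting transcription factor, was 32.9, 34.8, 35.6, 36 and 60.4 CPM on day 5 and 11.2, 11.9, 12.2, 12.2 and 15.3 CPM on day 7. Library 1-315 was the highest on day 5 and library 2-1337 the highest on day 7, and the days lay well apart (-1.64 ± 0.17, 3.11-fold lower, adjusted p = 0.00104). JUN, part of the AP-1 complex (-0.64 ± 0.09, adjusted p = 0.00264), and GADD45A, induced by DNA damage (-0.55 ± 0.09, adjusted p = 0.00368), fell, while the antiproliferative gene BTG2 rose (0.69 ± 0.16, adjusted p = 0.0176). The count of rises was 1 without 8-1350, 2-371, 4-184, 7-300, 4-064 or 5-117. Among 39 heat shock and unfolded protein response genes, 5 fell (12.8%) and 3 rose (7.69%, near the background of 8.12%). The small heat shock gene HSPB1 (-0.80 ± 0.12, adjusted p = 0.00355), the mitochondrial chaperonin gene HSPE1 (-0.49 ± 0.09, adjusted p = 0.00709) and the disulfide isomerase gene PDIA4 (-0.45 ± 0.08, adjusted p = 0.00506) were the falls with the smallest adjusted p. The count of rises there was 1 without 2-371 or 4-184 and 0 without 4-064.

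In the activin, TGF-beta and BMP list 8 of 35 members fell and 1 rose. The exception was TDGF1, or cripto, a co-receptor for nodal, which stood at 72.3, 469, 507, 551 and 683 CPM on day 5 and at 1409, 2279, 2494, 2654 and 2988 CPM on day 7. Library 1-315 lay far below the other day 5 libraries, and the lowest day 7 library lay above every day 5 library (2.39 ± 0.48, 5.23-fold, adjusted p = 0.00906). Beside MSTN, the ligand gene BMP7 (-1.0 ± 0.18, adjusted p = 0.00571) and ID1, a target of BMP signals (-0.86 ± 0.19, adjusted p = 0.0150), fell. The lower count was 5 without 1-315, 2-371, 4-184 or 7-300 and 4 without 4-064.

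Growth factor ligands and receptors changed member by member. In the insulin-like growth factor list 3 of 20 rose. They were the insulin receptor INSR, from 61.1, 68.1, 68.8, 72.8 and 76.6 CPM to 122, 143, 153, 153 and 191 CPM (1.15 ± 0.13, adjusted p = 0.00133), PAPPA2, a protease that frees the factors from binding proteins (1.45 ± 0.20, adjusted p = 0.00256), and IRS2, an adaptor below the receptors (1.29 ± 0.30, adjusted p = 0.0170). Another 4 fell, with IGF1 at 360.2 ± 65.7 CPM on day 5 and 216 ± 58.1 CPM on day 7 (-0.73 ± 0.19, adjusted p = 0.0253), but that lower count was 0 to 2 without any 1 of 3-175, 8-1350, 6-338, 1-315, 2-371, 4-184, 7-300, 4-064 or 5-117. IGF1 lost its call without 2-371, 7-300, 4-064 or 5-117 (adjusted p up to 0.0650). Among FGF, EGF and other growth factors 5 of 31 rose (16.1%) and 3 fell (9.68%, near the background). The EGF receptor ligand TGFA (0.87 ± 0.14, adjusted p = 0.00465), the receptor ERBB3 (0.62 ± 0.13, adjusted p = 0.0110) and the interleukin 6 receptor IL6R (0.64 ± 0.15, adjusted p = 0.0147) rose, and the platelet-derived growth factor PDGFC fell (-0.66 ± 0.14, adjusted p = 0.0109). The count of falls was 1 without 1-315, 4-064 or 5-117.

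WNT genes split by member. The ligand WNT11 rose from 13.3, 17.7, 21.7, 24.5 and 28.2 CPM to 45.1, 53.2, 59.1, 67.5 and 88.4 CPM (1.59 ± 0.23, adjusted p = 0.00304), whereas the ligand WNT2 fell from 55.4, 57.3, 77.9, 80.0 and 129.6 CPM to 18.3, 24.6, 28.1, 31.5 and 44.3 CPM (-1.42 ± 0.27, adjusted p = 0.00739). Neither ligand overlapped between the days. Among receptors FZD7 rose (1.24 ± 0.18, adjusted p = 0.00308) and FZD2 fell (-0.65 ± 0.15, adjusted p = 0.0168). Of 30 ligands and receptors 3 rose and 5 fell, with a lower count of 2 or 3 without 1-315, 2-371, 4-064 or 5-117. Among antagonists and feedback targets the secreted DKK3 (-1.09 ± 0.19, adjusted p = 0.00538) and the nuclear partner of beta-catenin TCF7 (-0.54 ± 0.12, adjusted p = 0.0149) fell and the secreted antagonist SFRP5 rose (1.70 ± 0.35, adjusted p = 0.0100). Of the 22 genes in that list 1 rose (4.55%, below the background) and 3 fell (13.6%), with 2 to 4 lower when 1 library was left out.

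Genes of fatty acid uptake and triglyceride synthesis held 9 rises and 5 falls among 39. DGAT2, the enzyme of the last step of triglyceride synthesis, was 2.04, 2.56, 3.76, 4.41 and 5.94 CPM on day 5 and 11.1, 32.8, 38.5, 38.8 and 40.4 CPM on day 7. Library 6-338, the lowest of day 7, still lay above every day 5 library (3.14 ± 0.40, 8.79-fold, adjusted p = 0.00184). SLC27A6, a fatty acid transporter, rose from 1.89, 4.39, 5.91, 11.7 and 18.6 CPM to 33.5, 51.7, 63.9, 113 and 157 CPM (3.33 ± 0.63, adjusted p = 0.00734). ACSL4, which activates arachidonic acid, rose 2.24-fold (1.16 ± 0.21, adjusted p = 0.00668). The fatty acid binding protein FABP5 (-1.35 ± 0.31, adjusted p = 0.0160) and the transporter SLC27A3 (-0.57 ± 0.14, adjusted p = 0.0207) fell. The count of falls was 2 or 3 without 3-175, 8-1350, 1-315, 2-371, 4-184 or 4-064, and that of rises stayed between 7 and 10. In the cholesterol list 5 of 31 fell, led by the synthesis genes ACAT2 (-1.08 ± 0.18, adjusted p = 0.00478), MVK (-0.65 ± 0.13, adjusted p = 0.00787) and SQLE (-0.90 ± 0.21, adjusted p = 0.0156), and the 3 rises, in TM7SF2, NPC1 and ABCA1, were each lost in 4 to 8 of the 10 fits with 1 library left out.

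Calls among transport genes for ions, sugars and amino acids went in both directions. SCNN1A, a subunit of the epithelial sodium channel, rose from 21.8, 31.7, 38.8, 42.4 and 51.4 CPM to 60.6, 101, 115, 122 and 126 CPM without overlap (1.52 ± 0.26, adjusted p = 0.00513). TRPV6, a calcium channel of epithelia, fell from 6.82, 9.85, 12.3, 13.5 and 20.5 CPM to 0.960, 2.99, 3.29, 3.87 and 5.63 CPM (-1.89 ± 0.40, adjusted p = 0.0111). In that list of ion, bicarbonate and water channels and transporters 6 of 31 fell (19.4%), 3 of them without day 5 library 1-315, and 3 rose (9.68%, near the background of 8.12%). SLC1A1, a glutamate and aspartate transporter, rose from 86.8, 107, 129, 147 and 186 CPM to 295, 363, 367, 379 and 464 CPM (1.53 ± 0.19, 2.90-fold, adjusted p = 0.00172). SLC38A7 (1.44 ± 0.20, adjusted p = 0.00263) and SLC7A4 (1.32 ± 0.24, adjusted p = 0.00691), of other amino acid transporter families, rose, and the glutamine transporter SLC1A5 fell (-1.22 ± 0.21, adjusted p = 0.00571). Of 33 amino acid transporters 6 rose (18.2%) and 2 fell (6.06%, below the background of 7.89%), with 1 fall without 1-315 or 2-371. Their summed level was 1300.2 to 1399 CPM on day 5 and 1697 to 1994 CPM on day 7. Within that sum SLC1A1 alone took 86.8 to 186 CPM on day 5 and 295 to 464 CPM on day 7. The median log2 fold change of the 33 was -0.0046, with 16 positive and 17 negative, so the sum does not show a rise of most members. Among 14 glucose transporters SLC50A1 rose (1.22 ± 0.25, adjusted p = 0.0104) and SLC2A10 fell (-1.43 ± 0.26, adjusted p = 0.00626), as 1 of 2 falls, with a count of 1 without 6-338, 1-315, 2-371, 4-184, 7-300, 4-064 or 5-117. The 1 rise was 7.14% of that list, near the background of 8.12%, and the 2 falls were 14.3%.

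Surface enzymes of the epithelium rose in 5 of 20 cases and fell in 1, with a median of 0.39. ANPEP, aminopeptidase N, was 163, 375, 412, 582 and 586 CPM on day 5 and 1184, 1327, 1522, 1564 and 1851 CPM on day 7. The lowest day 7 library had more than any day 5 library (1.83 ± 0.30, 3.56-fold, adjusted p = 0.00478). The alkaline phosphatase gene ALPL (0.94 ± 0.19, adjusted p = 0.00927) and the protease inhibitor gene SPINT2 (0.75 ± 0.14, adjusted p = 0.00696) rose. The count of rises was 3 without 1-315, 2-371, 4-184 or 4-064. General epithelial markers were mixed, with 4 of 20 higher, 3 lower and a summed level of 1667 to 2295 CPM on day 7, which overlapped day 5. The keratin KRT7 fell from 84.4, 101, 115, 118 and 122 CPM to 9.36, 13.8, 15, 21.8 and 35 CPM (-2.51 ± 0.29, adjusted p = 0.00150), KRT19 fell (-1.15 ± 0.18, adjusted p = 0.00368) and the transcription factor EHF fell (-1.21 ± 0.23, adjusted p = 0.00773). The claudin CLDN7 rose (0.75 ± 0.16, adjusted p = 0.0113), and the count of epithelial rises was 1 or 2 without 1-315, 2-371, 4-184, 7-300, 4-064 or 5-117.

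Mucins and mucosal defence genes held 7 falls and 5 rises among 24, with a median of -0.74. MUC16, a membrane mucin of the uterine surface, was 9.83, 27.2, 44.3, 47.1 and 47.3 CPM on day 5 and 0.195, 0.902, 1.81, 7.39 and 9.63 CPM on day 7 (-3.12 ± 0.81, adjusted p = 0.0262). Its lowest day 5 value, in library 8-1350, and its highest day 7 value, in library 2-1337, nearly met, without 2-1337 the log2 fold change was -3.78, and the call was lost without 1-315, 4-184, 7-300 or 4-064 (adjusted p up to 0.0581). The gel-forming mucin MUC5AC, low on both days, fell from 1.33 ± 0.363 to 0.282 ± 0.0949 CPM (-2.21 ± 0.31, adjusted p = 0.00263). PIGR, the receptor that carries IgA across epithelia, was 7.95, 8.22, 8.88, 9.25 and 35.1 CPM on day 5 and 0.620, 1.64, 1.78, 2.59 and 3.28 CPM on day 7 (-2.79 ± 0.55, adjusted p = 0.00852). Library 4-184 was the highest by far, without it the log2 fold change was -2.09, and the call was lost with the microRNA and tRNA share as covariate (adjusted p = 0.0850). BPIFA1, a secreted defence protein gene, rose (1.85 ± 0.45, adjusted p = 0.0193), but the count of rises was 1 to 3 without 3-175, 8-1350, 2-371, 7-300, 4-064 or 5-117, and the count of falls was 4 without 4-064. Among 32 uterine gland secreted proteins, which include ANPEP, 3 rose (9.38%) and 4 fell (12.5%), with the rises near the background of 8.12%. LGALS1, a galectin made by stroma, fell from 238 ± 35.7 to 113 ± 21.4 CPM (-1.05 ± 0.15, adjusted p = 0.00256), and IL1RN, the interleukin 1 receptor antagonist, fell (-1.32 ± 0.26, adjusted p = 0.00801), where the falls were 2 without 7-300 or 5-117 and the rises 1 without 1-315, 7-300, 4-064 or 5-117.

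Among 22 retinoid genes 5 fell (median -0.17). The retinoic acid binding protein CRABP2 fell from 28.4 ± 6.33 to 11.9 ± 3.79 CPM (-1.24 ± 0.22, adjusted p = 0.00606), RARRES1, a retinoic acid responsive gene, fell (-1.28 ± 0.23, adjusted p = 0.00659), and the receptor RARA fell (-0.51 ± 0.11, adjusted p = 0.0132). The count was 3 without 1-315, 2-371 or 4-064. Among 43 transcription and patterning factors of the uterus 2 rose (4.65%, below the background) and 5 fell (11.6%). There were 3 falls without 4-064 and 4 rises without 6-338. PAX2, a factor of Mullerian duct epithelium, was 105, 139, 175, 178 and 206 CPM on day 5 and 342, 485, 554, 602 and 640.4 CPM on day 7 (1.73 ± 0.22, 3.32-fold, adjusted p = 0.00173). GATA2, which works with PGR in the uterus of mice, rose (0.93 ± 0.14, adjusted p = 0.00352). The forkhead factor FOXO1 (-0.53 ± 0.13, adjusted p = 0.0191) fell.

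Immune genes held few calls, and some differed widely among the libraries of 1 day. Of 42 interferon-stimulated genes 0 passed in either direction in edgeR, though 1 had an unadjusted p below 0.05, DESeq2 called 0, 40 had a positive fold change and the median was 0.90. Their summed level was 1075, 1161, 1239, 2715 and 4182 CPM in the day 5 libraries and 1051, 1191, 1209, 4309 and 10861 CPM in the day 7 libraries, so both days ran from about the same floor and library 5-117 on day 7 was the highest. Over the alternative fits the median of this list ran from -0.42 to 1.53, so its sign depended on the fit. The members with the smallest p were GBP4 (0.73 ± 0.32, adjusted p = 0.15) and STAT2 (0.55 ± 0.25, adjusted p = 0.168). Without library 5-117 the log2 fold changes of GBP4 and STAT2 were 0.55 and 0.19. IGJ, the joining chain of IgA and IgM, was 4.74, 5.36, 7.78, 8.70 and 8.97 CPM on day 5 and 5.44, 6.48, 17.7, 231 and 508 CPM on day 7. Only day 7 libraries 6-338 and 2-1337 were high, and the other 3 lay between 5.44 and 17.7 CPM, so the days overlapped although the gene passed (4.45 ± 1.20, adjusted p = 0.0298). Leaving out 3-175, 8-1350, 1-315, 2-1337, 4-184 or 7-300 ended the IGJ call (adjusted p up to 0.0665), as did limma-voom (adjusted p = 0.307), and without 2-1337 the log2 fold change was 3.16. The other B and plasma cell markers did not pass. BOLA-DOB, an MHC class II gene whose reads could be shared with related genes, rose (1.95 ± 0.33, adjusted p = 0.00510). It was the 1 rise among 12 genes of the MHC class II list (8.33%, near the background of 8.12%). HDC, which makes histamine in mast cells, fell (-1.91 ± 0.33, adjusted p = 0.00558), as 1 of 7 mast cell markers (14.3%). TSLP, an epithelial cytokine, rose from 3.76 ± 0.535 to 7.34 ± 1.31 CPM (0.99 ± 0.17, adjusted p = 0.00538).

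Among 29 genes of motile cilia 0 passed in edgeR, 0 had an unadjusted p below 0.05 and DESeq2 called 0, with 25 positive fold changes and summed levels of 406 to 898 CPM on day 5 and 347 to 1520.5 CPM on day 7. Their median was 0.51, and without day 7 library 6-338 it was 0.01 and 3 of them passed as lower. Blood vessel endothelium had 1 of 18 lower (5.56%), pericytes 1 of 9 lower (11.1%), T and NK cells 1 of 23 lower (4.35%). Each of these 3 single calls was missing in at least 1 fit with a library left out, the endothelial count being 0 without 1-315, 2-371, 4-184, 7-300 or 5-117, the pericyte count 0 without 2-371 or 4-184, and the T and NK cell count 0 without 3-175, 1-315, 2-1337, 2-371, 4-184 or 4-064. Lymphatic endothelium had 0 of 5 in edgeR, 0 at an unadjusted p below 0.05 and 0 in DESeq2. Nerve and Schwann cell markers had 2 of 9 lower and 1 higher, while 6 had a positive fold change, the median was 0.56 and the summed level was 300.0 to 498 CPM on day 5 and 562 to 751 CPM on day 7, without overlap. The rise was ERBB3, described above, and 1 of the falls was UCHL1, a ubiquitin hydrolase of neurons (-2.48 ± 0.49, adjusted p = 0.00856), whose call was lost in the fits with 20 and with 40 libraries (adjusted p up to 0.0830). The count of falls was 1 without 1-315, 2-371, 4-064 or 5-117, and that of rises 2 without 1-315, 2-371, 7-300 or 4-064. CA1, a carbonic anhydrase used here as a red cell marker, was 0.113, 0.129, 0.366, 0.414 and 0.444 CPM on day 5 and 0.301, 4.09, 5.21, 11.3 and 12.7 CPM on day 7, with library 6-338 within the day 5 range (4.55 ± 0.83, adjusted p = 0.00659, lost in limma-voom at 0.0767), and the summed red cell markers reached at most 13.8 CPM, with a day 7 mean of 6.73 CPM for CA1 and of at most 0.915 CPM for any other marker of the list.

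Beside the genes given so with their values, calls described above were lost in other fits. With the microRNA and tRNA share as covariate these were BPIFA1, BTG2, CLDN7, COL1A1, COL4A3, ERBB3, FABP5, FZD2, ID1, IGF1, IL6R, MRC1, MUC16, NR3C1, PDGFC, RARA, SFRP5, SLC27A3, TCF21 and TNS4. With total count as covariate they were COL4A3, FOXO1, IGF1, IRS2 and SOHLH2. With all 40 libraries in the fit they were ACTA2, GADD45A, IGF1 and SLC27A3, and with the 20 contralateral libraries FZD2 and SLC27A3.

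The later contralateral libraries, 5 on day 13 and 5 on day 16, show where the day 7 level lay in the longer course, as a description with no test. Some rises were highest on day 7 among the 4 days sampled. ANPEP had a mean of 424 ± 174 CPM on day 5, 1489.6 ± 254 on day 7, 51.6 ± 8.12 on day 13 and 40.4 ± 9.82 on day 16 (SD, n = 5). TDGF1 ran through 457 ± 229.5, 2365 ± 594, 1277 ± 401 and 124 ± 38.8 CPM. Other rises went on after day 7, as in CYP39A1, with 348 ± 118 CPM on day 7, 1024 ± 221 on day 13 and 866 ± 432 on day 16, and in SLC1A1, with 374 ± 60.3, 783 ± 112 and 960.3 ± 221 CPM. Falls also took different courses after day 7. MSTN was at 20.4 ± 6.68 CPM on day 13 and 14.7 ± 6.79 CPM on day 16, beside 14.9 ± 3.15 CPM on day 5, and MUC16 at 26.7 ± 6.40 and 25.1 ± 13.4 CPM. OXTR was at 3.36 ± 2.53 CPM on day 13 and 21.8 ± 9.16 CPM on day 16, and KIF12, COL8A1 and LTBP1 stayed below their day 5 means, with 3.26, 5.53 and 93.5 CPM on day 16.

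**Figure D4:**
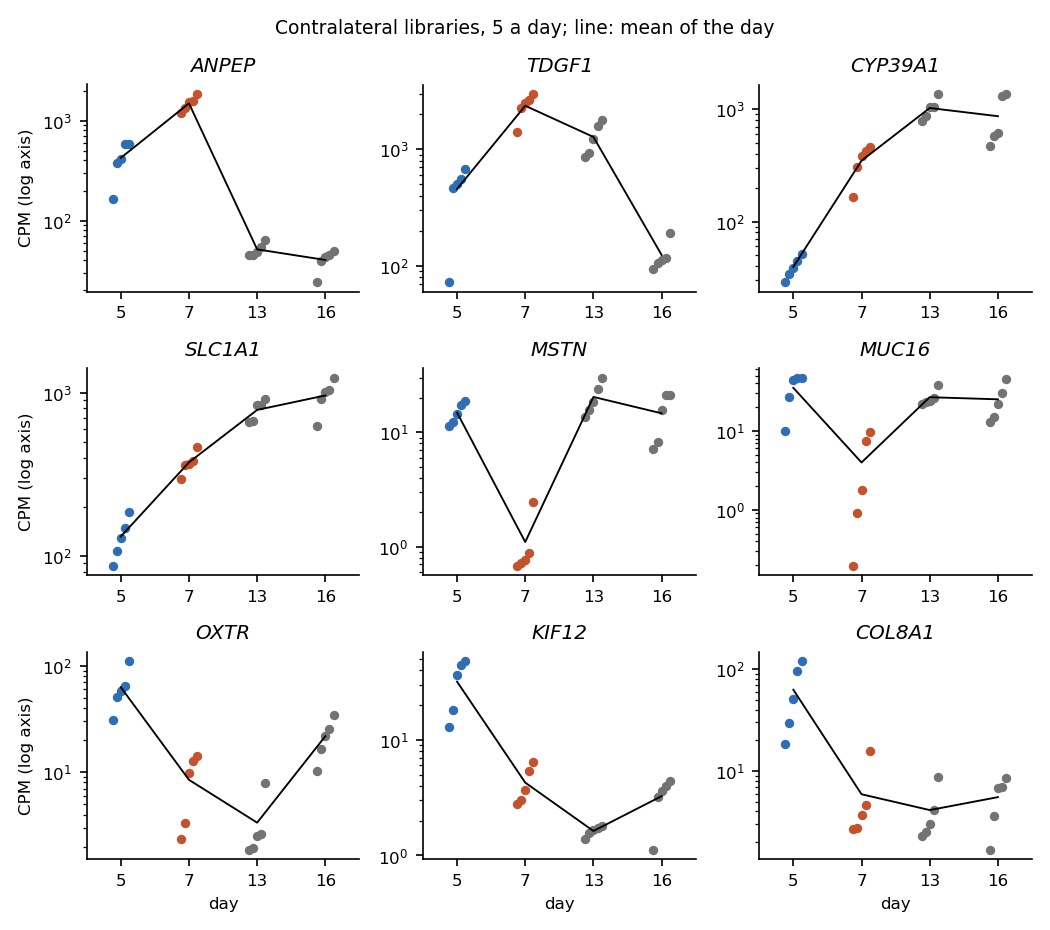
CPM (log axis) of 9 genes in the contralateral libraries of days 5, 7, 13 and 16 (horizontal axis, day, not to scale), 1 point per library and a line through the group means. ANPEP and TDGF1 peak on day 7 among the days sampled, CYP39A1 and SLC1A1 are higher still on days 13 and 16, MSTN and MUC16 dip on day 7, and KIF12, COL8A1 and OXTR stay below their day 5 means.

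Whether the change from day 5 to day 7 differed between the horns was tested over the 20 libraries of both horns and days. Of 19604 genes 0 passed (0.0%) in edgeR's quasi-likelihood test of the difference in change, 532 had an unadjusted p below 0.05, and the smallest adjusted p was 1.00. DESeq2 also called 0. This says that no gene's difference passed at this number of animals in a fit that did not pair the horns, and not that the horns changed alike. The SE of each difference below comes from that unpaired fit. The ipsilateral values come from the same heifers as far as the labels go and are no independent repeat. In that fit MSTN changed by -3.75 in the contralateral and -3.23 in the ipsilateral horn (difference 0.52 ± 0.69 SE), OXTR by -2.87 and -2.92 (difference -0.04 ± 0.74), and TDGF1 by 2.39 and 2.56 (difference 0.16 ± 0.72). PGR changed by -1.03 and -0.99 (difference 0.04 ± 0.33). The widest gaps among the genes with steep falls were in DMBT1, with -6.09 and -3.0 (difference 3.09 ± 1.36), and in AQP5 and NTS, the same 3 genes for which contralateral day 5 library 4-184 stood high. IRS2 had opposite signs, 1.30 in the contralateral and -0.77 in the ipsilateral horn, with a difference of -2.07 ± 0.83 that did not pass (adjusted p = 1.00).

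**Figure D5:**
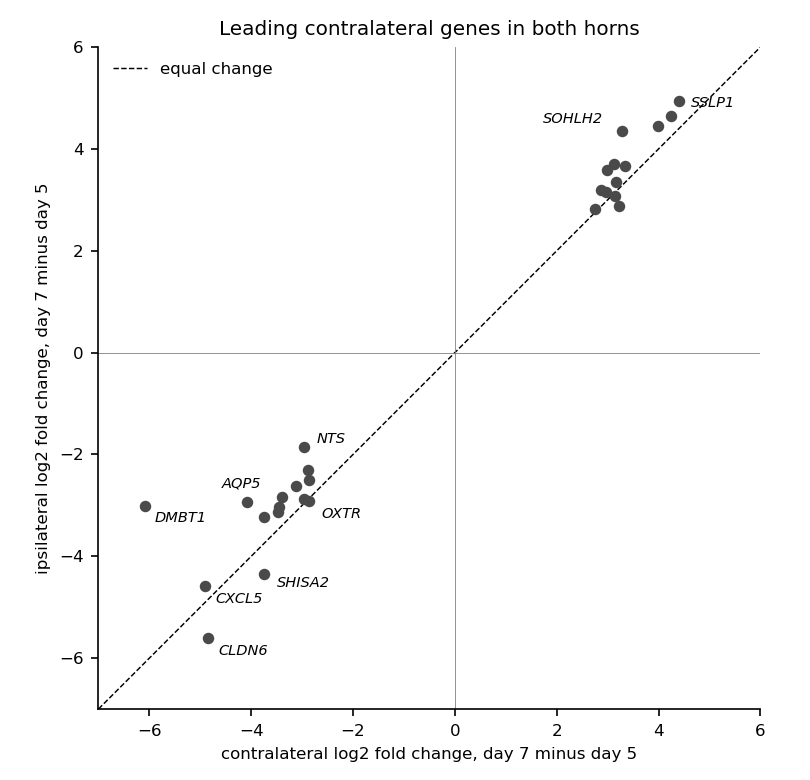
Log2 fold change from day 5 to day 7 of the 28 genes of the plot of leading genes, in the contralateral horn (horizontal axis) and the ipsilateral horn (vertical axis), from the fit over both horns. The dashed line marks equal change, and DMBT1 lies farthest from it, with a change of -6.09 in the contralateral and -3.0 in the ipsilateral horn.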

How the data were processed

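Whole-tissue endometrial RNA from the contralateral horn of 5 heifers on day 5 and 5 on day 7 was compared. Per the labels' protocols, RNA was extracted from tissue homogenate, treated with DNase on a column, and made into stranded mRNA libraries. Per the submitters' processing notes, reads were checked with FastQC, aligned to the bovine build UMD3.1 with HISAT2 and counted with featureCounts. Versions and the counting options for strand and shared reads are not given in the sources used here, so genes with near-identical copies or an overlapping neighbour are uncertain.

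The authors deposited raw read counts, which entered the tests unchanged. Named genes number 32671, of which 27 had names turned into dates and are not printed. A further 1 mitochondrial row entered neither the library sizes nor the tests. Totals of 30.8 to 38.6 M reads per library set the precision of low genes. Replicates were treated as separate animals, since each contralateral library has its own tag. There were 0 identical columns, and the closest pair of replicates differed by a chi-square of 35.7 per gene, above sampling noise.

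Counts were scaled with TMM factors, filtered with filterByExpr and tested with edgeR 4.0.16 (quasi-likelihood test, Benjamini-Hochberg adjusted p below 0.05 over all genes tested), in R 4.3.3. The test was run on simulated counts with known changes, drawn independently with the spread fitted to these libraries. Shifts of a whole library were not simulated, so that check does not cover them. Fold changes are log2, day 7 minus day 5, with ± SE, and CPM are counts per 1e+06 reads in named genes. The difference in change between horns was tested over 20 libraries in 4 groups. The tags join the horns, but libraries of 1 tag deviated together (r above 0.1) in 3 of 10 tags (r from -0.267 to 0.694). Each contralateral library had its highest r with a different ipsilateral library of its day (0.320 to 0.762), under its own tag in those 3 cases. Whether horns of 1 animal carry different tags was not tested. Library measures were compared with exact two-sided permutation tests (252 arrangements).

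The members, the 45 gene lists (27 of pathways and 18 of cell types, 1127 of 1150 entries in the table) and the tests were chosen with earlier results of these data known. Named genes are the 15 highest and 15 lowest log2 fold changes among passing genes whose days did not overlap and whose average log2 CPM reached 1, up to 3 passing members per list and direction by adjusted p (where none passed, up to 2 by p, as values only), and PGR, ESR1 and OXTR. A few of the 176 genes that the rule named are not reported here, and the text uses those picked after their values were seen. Alternatives were RLE scaling, no filter, DESeq2 1.42.0, limma-voom (limma 3.58.1), a robust prior, more libraries in the fit, 2 covariates, a fold threshold, and each library left out in turn. Gene names were matched to the bovine reference table (20070 symbols and 657 synonyms). No genome of the build was used here.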

Additional observations from a re-analysis of the deposited data

Results flagged for a closer look

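In 24 of 266 groups of 5 values checked (9.02%), 1 library lay so far from the other 4 that the gap took more than 0.71 of the group's whole range. Chance alone gives about 1 in 20 such groups only where values are normally distributed, which was not tested for these untransformed values. The genes are also not independent of each other, so the 9.02% cannot be read as an excess. Of the 24, 7 were day 5 library 1-315 and 6 were day 7 library 6-338.

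Library 1-315 was the highest of day 5 for CTGF (489 CPM), HSPB1 (332 CPM), ABCA1 (96.7 CPM), MCM6 (72.2 CPM), MYC (60.4 CPM) and TSLP (4.70 CPM), and the lowest for NUPR1 (21.4 CPM). It is also the day 5 library farthest from day 7 on the first principal component. Among the other day 5 libraries, 4-184 was the highest for DMBT1 (249.9 CPM), PIGR (35.1 CPM), AQP5 (19.7 CPM) and NTS (12.2 CPM), and 8-1350 was the lowest for CTSF (49.2 CPM).

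On day 7, library 6-338 was the highest for SLC1A5 (25.6 CPM), COL8A1 (15.8 CPM), SHISA2 (7.59 CPM) and MSTN (2.44 CPM), all of which fell between the days, and the lowest for DGAT2 (11.1 CPM) and IRS2 (4.31 CPM), which rose. In these 6 genes it lay on the day 5 side of the other day 7 libraries. Library 2-1337 was the highest for JUN (164 CPM), DKK3 (103 CPM), CNN2 (65.5 CPM) and MYC (15.3 CPM), 5-117 for STAT2 (269 CPM) and 2-371 for TGFA (51.4 CPM).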

How the results depend on the processing

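The count of genes past the threshold, 2981, was 2966 with RLE scaling, 2597 with no filter, 4250 with DESeq2, 2937 with limma-voom, 2971 with a robust prior, 3987 with 20 contralateral libraries and 4028 with all 40. It moved by more than 1.5 times to 1751 with log2 total count as a covariate, to 1397 with the joint microRNA and tRNA share (log2) as covariate, and to 849 when a 2-fold change was also asked for. With 1 library left out it lay between 1698 (without 4-064) and 3389 (without 6-338). DESeq2 called 99.9% of the main genes, the total count fit 56.8% and the microRNA and tRNA fit 42.5%; the cause was not tested. Of the 124 genes named above that passed, 82 passed under every alternative run, 34 lost the call with the microRNA and tRNA covariate, 11 with the total count covariate, 13 with at least 1 library left out, and 0 changed sign. The difference in change between horns was 0 genes (532 at an unadjusted p below 0.05 in edgeR, 0 in DESeq2) under every alternative run, the fit with the tag as replicate block included (0 genes), and with any 1 of the 20 libraries left out (0 to 0). That block follows the tags, which joined the best-correlated libraries of the horns in 3 of 10 cases, so no fit is known to pair the horns by animal. No tag occurs on both days, so the contralateral comparison has no pairs.

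Of the library measures, with 1 library left out the day 7 minus day 5 difference in the mitochondrial share ran from 0.0997 to 0.154 percentage points (past the threshold without 6-338), in the microRNA share from 0.000617 to 0.00109 (past it without 2-1337), in the 100 most abundant genes from -1.97 to -1.31 (past it without 2-1337, at -1.96) and in total count from -3.07 to -1.26 M. The tRNA share ran from -1.28e-05 to 0.000109 and changed sign without 6-338 (-1.28e-05) and without 7-300 (-1.48e-06). Depth limits genes below 1 CPM most, such as MUC5AC on day 7.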

Other observations

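Lysosomal protease genes gave a smaller set of calls. In the list of cathepsins and cystatins, 2 of 19 genes rose (10.5%) and 1 fell (5.26%), near the background. CSTB, an inhibitor of cysteine cathepsins, was 4.62, 6.57, 7.78, 8.16 and 8.23 CPM on day 5 and 12.7, 14, 15.1, 17.4 and 17.8 CPM on day 7 without overlap (1.14 ± 0.19, adjusted p = 0.00457 in edgeR, lost in the fits with 20 and with 40 libraries at up to 0.0897). CTSF, a cysteine cathepsin, rose from 62.3 ± 7.55 to 107 ± 21.8 CPM (SD, n = 5; 0.81 ± 0.16, adjusted p = 0.00983). Among 34 chemokines, cytokines and receptors 2 rose and 2 fell (5.88% each, below the background), CXCL5 with the largest change.

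PRG3, a gene of eosinophil granules with a close relative in the genome, was 0.985, 3.86, 7.07, 9.24 and 9.37 CPM on day 5 and 8.41, 17.7, 21.5, 53.7 and 83.9 CPM on day 7. Library 6-338 lay within the day 5 range and the other 4 day 7 libraries above it (2.62 ± 0.70, adjusted p = 0.0284), and the call was lost without 3-175, 8-1350 or 4-064 (adjusted p up to 0.0747), in limma-voom and with the microRNA and tRNA share as covariate. PRG3 was the only rise among the 7 neutrophil and eosinophil markers tested, of which 2 fell, and it made up most of their sum on day 7. That sum was 10.9, 11.8, 12.5, 15.4 and 16.9 CPM on day 5 and 10.2, 20.7, 28, 57.4 and 86 CPM on day 7.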
